A study of Mus musculus with 13 samples.

Results

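The 10 genes described here belong to the actin system that mouse oocytes use to divide asymmetrically, and they were followed through ribosome profiling of germinal vesicle (GV) and metaphase II (MII) oocytes. They were taken from a list of such genes and matched to the count tables by Ensembl gene identifier, and all 10 were found among the 22442 genes counted. They are the straight-filament nucleators Fmn2, Spire1 and Spire2, the Arp2/3 complex genes Actr2, Actr3 and Arpc2, the filament-severing and monomer-binding genes Cfl1 and Pfn1, and the cytoplasmic actins Actb and Actg1. The Ribo-seq libraries came from WT oocytes (3 GV and 2 MII) and from Nat10-ZcKO oocytes (3 GV and 3 MII), in which floxed Nat10 is recombined by Zp3-Cre, a driver that is active in growing oocytes from the primary follicle on. The acRIP-seq libraries, 1 with an anti-ac4C antibody and 1 with IgG, were made from mRNA of WT GV oocytes, for which the labels name the C57BL/6J strain. Juvenile P21 females were primed with PMSG to obtain GV oocytes and with PMSG followed by hCG to obtain ovulated MII oocytes. The paper's superovulation method digests the cumulus complexes with hyaluronidase before oocytes are counted. Its Ribo-seq method does not mention this step. Every Ribo-seq library pooled many oocytes, every Nat10-ZcKO group carried the same deletion, and all lysates had been treated with cycloheximide and RNase I. The deposited design text also mentions tamoxifen injection for 3 days, which Zp3-Cre does not need, and it could not be settled what that refers to. Nothing in the labels says that replicates came from separate animals, so the p-values below measure the spread between libraries, which may be technical.

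A fully grown oocyte must move its spindle from the centre to the cortex and then expel very small polar bodies. Formin-2, encoded by Fmn2, and the Spire proteins nucleate unbranched filaments that form a cytoplasmic mesh, which carries the spindle and also moves vesicles. The Arp2/3 complex, of which Actr2 and Actr3 encode the actin-related core and Arpc2 a scaffold subunit, nucleates branched filaments and builds the thick actin cap over the MII spindle. Profilin, encoded by Pfn1, hands actin monomers to formins, and cofilin, encoded by Cfl1, severs old filaments and returns monomers to the pool.

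A set of 3 libraries stood apart from the other 8, and the tests below are given with and without them. The correlations leave out WT MII replicate 2 throughout and are given with and without Nat10-ZcKO GV replicates 1 and 2. WT MII replicate 2 held 4815 ribosome-protected fragment (RPF) counts, against 42360 to 279464 in the other 10 libraries, and only 523 genes had a count in it. Nat10-ZcKO GV replicates 1 and 2 were the next shallowest, at 42360 and 51709 counts. The 12 oocyte markers, among them the zona pellucida genes, summed to 65380 to 128300 CPM (counts scaled so that every library has the same total) in the other 4 GV libraries, but to 283 CPM in the library labelled Nat10-ZcKO GV replicate 1 and 17370 CPM in Nat10-ZcKO GV replicate 2. Zp1, Zp2 and Gdf9 were at 0 counts in Nat10-ZcKO GV replicate 1, so its label as an oocyte library is not borne out by these markers. In the same library the 12 adipocyte markers summed to 12840 CPM, against 2669 CPM in Nat10-ZcKO GV replicate 2 and 166 to 272 CPM in the other 4 GV libraries, the 10 smooth muscle markers to 4344 CPM and the 15 granulosa and cumulus markers to 9679 CPM. WT MII replicate 2 had 1 count on the oocyte markers and none on the granulosa markers. The targeted gene, Nat10, had 1 to 11 counts in every library and therefore could not check the genotype labels; the counts also do not separate the deleted exons.

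**Figure D1:**
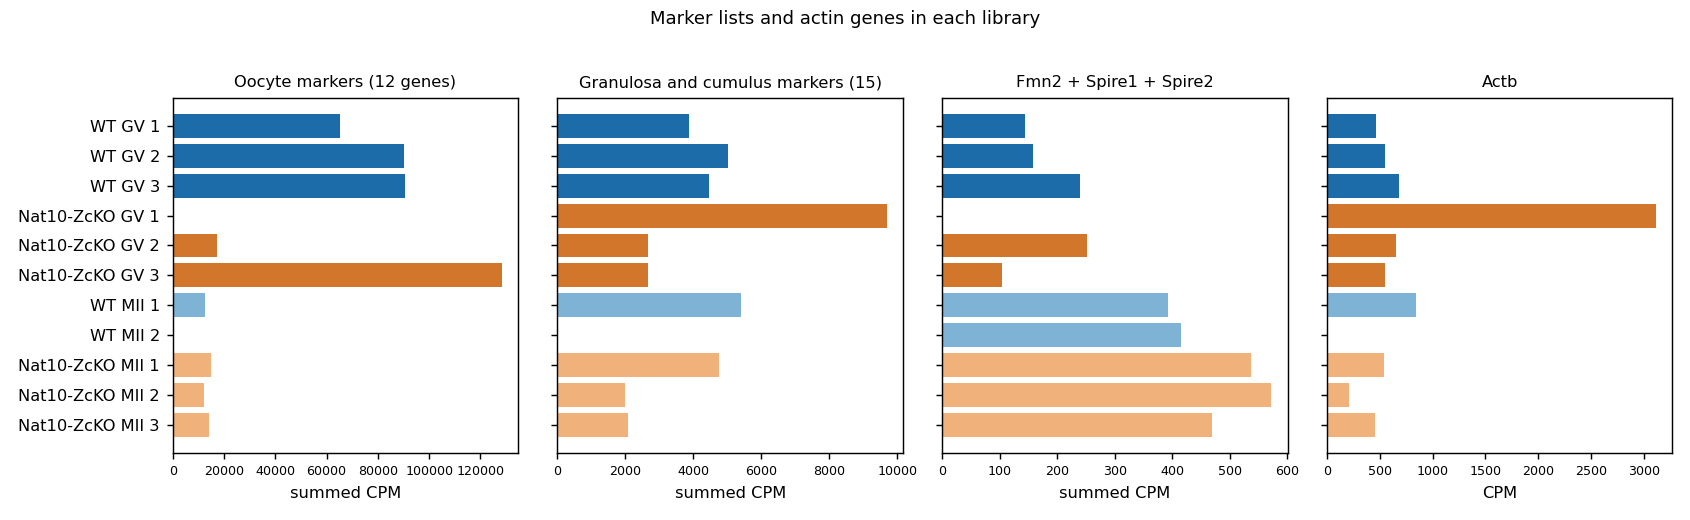
Summed CPM of the oocyte marker list, of the granulosa and cumulus marker list and of Fmn2, Spire1 and Spire2, and the CPM of Actb, as bars for each of the 11 Ribo-seq libraries. In Nat10-ZcKO GV replicate 1 the oocyte markers and the 3 nucleators sat at or near 0 while Actb was at 3116 CPM, the highest of all libraries.

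How much of each coding sequence a short footprint can place in the genome was measured first, since several of these genes have processed copies. Each coding sequence was cut into every window of 28 bases, a usual footprint length, and each window was searched on both strands of GRCm38. All windows of Fmn2, Spire1 and Spire2 occurred only in their own gene. Of the windows of Pfn1 97.2% were found nowhere else, of Arpc2 85.0%, of Actr2 66.8%, of Actb 49.8%, of Cfl1 31.5% and of Actr3 25.3%. For Actg1 it was 0 of 1098 windows. A processed pseudogene on chromosome 4 from 103563402 to 103564526, Gm12715, alone held 1036 of the Actg1 windows, a pseudogene on chromosome X (Gm8822) held 876 of the 1227 windows of Actr3, and one on chromosome 8 (Gm6180) held 413 of the 654 windows of Cfl1. None of the 6 pseudogenes named by this search is a row of the Ribo-seq tables. How the authors treated footprints with more than 1 place is not given in the sources used here, so the counts of Actg1, Actr3, Cfl1, Actb and Actr2 are uncertain in level. The part of shared windows in the low counts of Actg1 and Actr3 below was not tested.

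**Figure D2:**
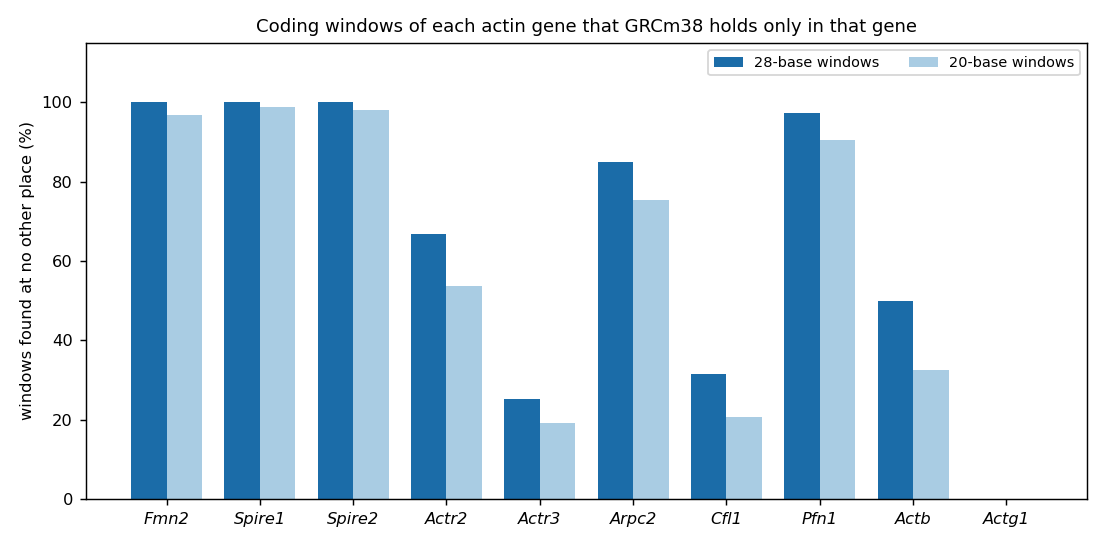
Share of 28-base and 20-base windows of each coding sequence, in percent, that GRCm38 holds in no place outside the gene. The 3 straight-filament nucleators reach 100% at 28 bases, and Actg1 is at 0% for both lengths.

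Actb and Actg1, which encode nearly the same protein, agree at 997 of 1125 coding bases (88.6%), and the longest run without a difference is 62 bases. Of the 28-base windows, 118 (10.7%) are common to Actb and Actg1. The stretches below show where both actins are most and least alike. They were read from the RefSeq sequence of GRCm38 in the sense of the gene, with the gene models of GENCODE M21, and capitals mark the bases at which both genes differ. The window counts given with them are for the whole genome, pseudogenes included, and not for Actb against Actg1 alone. In the 90-base stretch within 1 exon in which they are most alike, coding bases 1018 to 1107, they differ at 3 bases, and 17 of the 63 windows of Actb and none of Actg1 are found at 1 place only. It lies on the minus strand in both genes, at chr5:142903819-142903908 for Actb and chr11:120346411-120346500 for Actg1, within coding exons.
Actb: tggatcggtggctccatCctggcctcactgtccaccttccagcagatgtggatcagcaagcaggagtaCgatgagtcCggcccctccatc
Actg1: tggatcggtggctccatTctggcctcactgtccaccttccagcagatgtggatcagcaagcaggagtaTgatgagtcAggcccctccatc
In the first 90 coding bases, where they are least alike, they differ at 16 bases. There all 63 windows of Actb are found at 1 place only, and again none of Actg1. These lie at chr5:142905597-142905686 and chr11:120348002-120348091.
Actb: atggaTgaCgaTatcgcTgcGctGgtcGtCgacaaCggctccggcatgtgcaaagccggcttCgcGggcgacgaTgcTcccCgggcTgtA
Actg1: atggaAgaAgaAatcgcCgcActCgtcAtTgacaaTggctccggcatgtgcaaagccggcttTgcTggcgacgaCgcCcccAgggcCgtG

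Fmn2 (ENSMUSG00000028354.13, chromosome 1 from 174501825 to 174822729, plus strand), the formin of the cytoplasmic mesh, was low at GV and several-fold higher at MII. WT GV oocytes gave 11, 17 and 2 RPF counts of Fmn2, and Nat10-ZcKO GV oocytes 0, 8 and 12. The WT MII libraries gave 32 and 2, whereas those of Nat10-ZcKO MII gave 60, 46 and 51. Footprint counts measure mRNA amount and translation together, and fewer oocytes and less RNA per oocyte cannot be told apart in such libraries. Scaled to depth, Fmn2 was at 52.4 ± 28.4 CPM in WT GV (SD, n = 3), 237 and 415 CPM in the WT MII libraries, and 317 ± 3.33 CPM in Nat10-ZcKO MII (SD, n = 3). All 5 MII libraries lay above all 6 GV libraries, the closest pair being Nat10-ZcKO GV replicate 2 at 154.7 CPM and WT MII replicate 1. Within a genotype, 56% of all genes tested in WT and 42.5% in Nat10-ZcKO did not overlap between the stages, in either direction. The share over both genotypes together was not computed. The 0 in Nat10-ZcKO GV replicate 1 allows up to 70.8 CPM, taking 3 counts as the limit, and the 2 counts of WT MII replicate 2 are below that limit; such limits, and the intervals given later, hold for counting error alone, because PCR copies of 1 molecule are counted too.

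Spire1 (ENSMUSG00000024533.17), which works with formin-2 on the same filaments, followed Fmn2 in the Nat10-ZcKO libraries. It had 9, 26 and 19 counts in WT GV and 0, 4 and 12 in Nat10-ZcKO GV. The WT MII libraries held 18 and 0, those of Nat10-ZcKO MII 41, 38 and 24. The Nat10-ZcKO MII libraries, at 150.3 to 259.0 CPM, all lay above the Nat10-ZcKO GV libraries, at 0 to 77.4 CPM. These groups did not overlap for 42.5% of all genes tested, in either direction. WT MII replicate 1, at 133.5 CPM, lay within the WT GV range of 61.9 to 197.6 CPM.

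Spire2 (ENSMUSG00000010154.7, chromosome 8 from 123332713 to 123369515, plus strand) had 13 counts over the 11 libraries and exceeded 3 counts in 1 of them. It had 1, 1 and 2 counts in WT GV, 0, 1 and 5 in Nat10-ZcKO GV and 3 in WT MII replicate 1. In the 3 Nat10-ZcKO MII libraries it had 0 of 494389 counts in all, which allows up to 6.07 CPM over the group. Over the 3 Nat10-ZcKO GV libraries it was at 16.2 CPM, from 6 counts, and over the WT GV libraries at 7.68 CPM, from 4. Spire2 did not pass the filter on low counts in any comparison, so no test of a stage difference is given.

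Of the Arp2/3 complex genes, Actr2 (ENSMUSG00000020152.7, chromosome 11 from 20062304 to 20112913, minus strand) had higher CPM in the deeper MII libraries than in the GV libraries. It had 1, 22 and 2 counts in WT GV, 4, 6 and 10 in Nat10-ZcKO GV, 22 and 0 in WT MII, with 40, 25 and 55 for Nat10-ZcKO MII. On the CPM scale the Nat10-ZcKO MII libraries, at 170.4 to 344.4, did not overlap the Nat10-ZcKO GV libraries, at 36.1 to 116.0. The same held for 42.5% of all genes tested. In WT, MII replicate 1 was at 163.2 CPM and the GV libraries at 6.9 to 78.7 CPM, but the 0 counts of WT MII replicate 2 allow up to 623 CPM.
Arpc2 (ENSMUSG00000006304.14, chromosome 1 from 74236084 to 74268209, plus strand) went the other way in WT MII replicate 1. It had 6, 24 and 16 counts in WT GV and 3, 6 and 13 in Nat10-ZcKO GV, against 1 and 0 in WT MII and, for Nat10-ZcKO MII, 3, 12 and 6. The single count of WT MII replicate 1 is 7.42 CPM, below the 41.2 to 166.4 CPM of the WT GV libraries, while in Nat10-ZcKO both stages overlapped. Actr3 (ENSMUSG00000026341.16, chromosome 1 from 125392905 to 125435727, minus strand) had 0 to 3 counts in every library, 18 in all, and could not be compared.

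Profilin and cofilin were among the most heavily occupied members. Pfn1 (ENSMUSG00000018293.4, chromosome 11 from 70651850 to 70654644, minus strand) had 45, 60 and 26 counts in WT GV, 29, 39 and 68 in Nat10-ZcKO GV, 23 and 0 in WT MII, with 28, 28 and 13 for Nat10-ZcKO MII. It was at 265 ± 47.6 CPM in WT GV (SD, n = 3), 561 ± 276 CPM in Nat10-ZcKO GV (SD, n = 3) and 140 ± 55.2 CPM in Nat10-ZcKO MII (SD, n = 3). All Nat10-ZcKO MII libraries, at 81.4 to 190.8 CPM, were below all Nat10-ZcKO GV libraries, at 245.4 to 754.2 CPM, and the 2 highest GV values belonged to the shallow replicates 1 and 2. Between these groups 42.5% of all genes tested did not overlap, in either direction.
Cfl1 (ENSMUSG00000056201.8, chromosome 19 from 5490455 to 5495201, plus strand) had 56, 80 and 44 counts in WT GV, 18, 1 and 121 in Nat10-ZcKO GV, 29 and 0 in WT MII, with 63, 14 and 42 for Nat10-ZcKO MII. Nat10-ZcKO GV replicate 2, at 19.3 CPM, stood apart from the other 2 libraries of its group, at 424.9 and 436.6 CPM.

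Actb (ENSMUSG00000029580.14, chromosome 5 from 142903115 to 142906754, minus strand), the gene of β-actin, had the most counts of the 10 genes, 923 over the 11 libraries. It had 68, 154 and 66 counts in WT GV, 132, 34 and 152 in Nat10-ZcKO GV, 114 and 0 in WT MII, with 101, 30 and 72 for Nat10-ZcKO MII. Nat10-ZcKO GV replicate 1, the library with nearly no oocyte markers, was at 3116 CPM. The other 9 libraries with a count were at 204.5 to 845.4 CPM, with WT MII replicate 1 the highest and Nat10-ZcKO MII replicate 2 the lowest. Actg1 (ENSMUSG00000062825.15, chromosome 11 from 120345690 to 120348542, minus strand), the gene of γ-actin, had 1 count in each of WT GV replicates 1 and 2 and Nat10-ZcKO GV replicate 3, and 0 in the other 8 libraries.

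**Figure D3:**
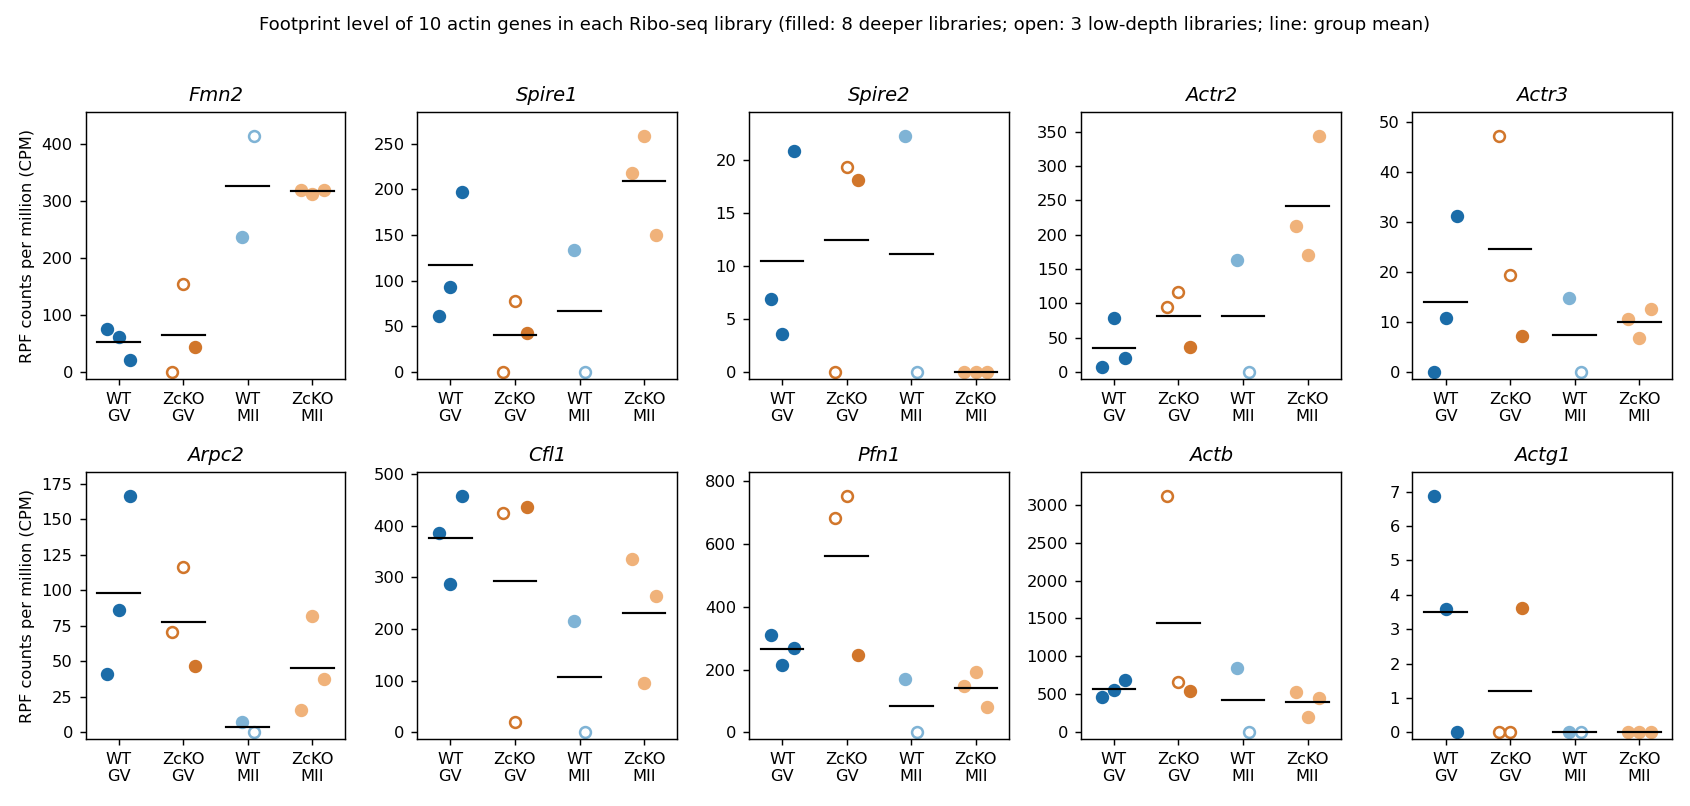
RPF level of each of the 10 genes in CPM (vertical axes, 1 scale per gene), with 1 point per library in the 4 groups, open symbols for the 3 low-depth libraries and a line at the group mean. Fmn2 and Actr2 sit higher at MII than at GV in the deeper libraries, while Pfn1 sits lower.

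Levels of different genes were compared per length of coding sequence. In TPM (counts divided by coding length, then scaled to the same sum in each library), WT GV oocytes had Pfn1 at 793 ± 139, Actb at 648 ± 132 and Cfl1 at 588 ± 138 (SD, n = 3 each), and these 3 overlapped each other but lay above the 7 other genes in every library. Fmn2 was in place 8 there, at 14.2 ± 7.62 TPM (SD, n = 3), its range overlapping those of Actr3, Spire2, Actr2 and Actg1. In Nat10-ZcKO GV the first 3 were again Pfn1, Actb and Cfl1, Actr2 was in place 5 at 95.3 TPM (37.9 to 139 over the 3 libraries) and Fmn2 in place 8 at 19.2 TPM (0 to 46.1). In Nat10-ZcKO MII the order was Actb at 454 ± 190, Pfn1 at 428 ± 178, Cfl1 at 362 ± 188, Actr2 at 267 ± 94.3, Spire1 at 139 ± 40.0, Fmn2 at 87.6 ± 1.56 and Arpc2 at 63.4 ± 48.9 TPM (SD, n = 3 each). There Actr2 was above Spire1 and Spire1 above Fmn2 in every library, while the first 4 genes overlapped each other, as did Fmn2 and Arpc2.

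The counts of Fmn2 and Spire1 together per count of Actb were 0.279 to 0.318 in the 3 WT GV libraries and 0.439 in WT MII replicate 1. In the Nat10-ZcKO libraries this ratio was 0, 0.353 and 0.158 at GV and 1, 2.8 and 1.04 at MII.

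The comparison of GV with MII asks how the footprints of these genes change over meiotic maturation. In WT, edgeR's quasi-likelihood test with Benjamini-Hochberg adjustment over 2045 genes called 0 of the 7 genes tested, and 0.293% of all genes tested. Fmn2 had a log2 change of 2.14 ± 0.90 (SE, adjusted p = 0.154), Actr2 of 1.94 ± 0.72 (adjusted p = 0.121) and Arpc2 of -3.27 ± 1.31 (adjusted p = 0.154). Without WT MII replicate 2, which leaves WT MII replicate 1 alone and assumes that it varies like the GV libraries, 3 of 7 were called and 44.8% of all genes. Fmn2 then rose 4.37-fold (log2 change 2.13 ± 0.51, adjusted p = 0.00313), Actr2 rose 3.94-fold (1.98 ± 0.73, adjusted p = 0.0357) and Arpc2 fell 10.7-fold (-3.41 ± 1.17, adjusted p = 0.0257), a value that rests on 1 count at MII. Spire1 changed by 0.38 ± 0.52 on the log2 scale (adjusted p = 0.55). Without WT GV replicate 1, Fmn2 was also called (2.76, adjusted p = 0.0138), beside 11.7% of all genes. The CPM of both stages did not overlap for 4 of the 7 genes tested, Fmn2, Arpc2, Cfl1 and Pfn1, against 56% of all genes tested. For Arpc2, Cfl1 and Pfn1 this includes the 0 counts of WT MII replicate 2, which allow up to 623 CPM, above their WT GV values.

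In Nat10-ZcKO the same comparison called Pfn1 alone, 1 of 7 genes tested, against 16.5% of 2225 genes. Pfn1 fell 4.28-fold (log2 change -2.10 ± 0.67, adjusted p = 0.04996, just under the threshold of 0.05). This call was lost without Nat10-ZcKO GV replicate 2 (-1.67, adjusted p = 0.0992), where 8.78% of all genes were called. It was also lost without Nat10-ZcKO MII replicate 1 (-1.65, adjusted p = 0.325), 2 (-1.96, 0.202) or 3 (-1.48, 0.348), where edgeR called 0% of all genes, with 419 to 495 higher and 281 to 341 lower at an unadjusted p under 0.05. Fmn2 changed by 2.04 ± 0.86 (adjusted p = 0.106), Spire1 by 1.93 ± 0.80 (0.101), Actr2 by 1.56 ± 0.71 (0.128) and Actb by -1.85 ± 0.82 (0.121) on the log2 scale. These 5 genes did not overlap between the stages in CPM, and neither did 42.5% of all genes tested. DESeq2 called the same 5 genes and 35.5% of all genes. Without Nat10-ZcKO GV replicates 1 and 2, which leaves replicate 3 as the only Nat10-ZcKO GV library, 4 of 7 were called and 38.6% of all genes. Fmn2 rose 5.89-fold (2.56 ± 0.67, adjusted p = 0.000771), Actr2 rose 5.51-fold (2.46 ± 0.69, 0.0018) and Spire1 rose 3.82-fold (1.94 ± 0.68, 0.0147), while Cfl1 fell 2.32-fold (-1.22 ± 0.49, 0.0377). In that fit Pfn1 changed by -1.14 ± 0.53 (adjusted p = 0.074) and Actb by -0.76 ± 0.49 (0.197).

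A fit of the stage over both genotypes, with genotype as a covariate, was added after the data had been seen. Over all 11 libraries it called 0 of 7 genes and 21.2% of 3863 genes. Fmn2 changed by 2.02 ± 0.83 (adjusted p = 0.0615) and Actr2 by 1.70 ± 0.78 (0.0912) on the log2 scale. Without WT MII replicate 2, Fmn2 (adjusted p = 0.00449), Actr2 (0.00656) and Spire1 (0.0411) were called, against 24.5% of all genes, and without Nat10-ZcKO GV replicate 2, Fmn2 (0.0166) and Actr2 (0.0418), against 30.1%. In the 8 deeper libraries, 4 of each stage, 5 of 7 were called, against 55% of all 4029 genes. Fmn2 rose 4.99-fold (2.32 ± 0.42, adjusted p = 3.36e-05), Actr2 rose 4.62-fold (2.21 ± 0.52, 0.000788) and Spire1 rose 2.16-fold (1.11 ± 0.48, 0.0497). Cfl1 fell 1.97-fold (-0.98 ± 0.35, 0.0204) and Pfn1 fell 1.83-fold (-0.87 ± 0.35, 0.035). Arpc2 changed by -1.29 ± 0.72 (0.127), and Actb by -0.06 ± 0.31 (0.882), an interval of 2 SE that runs from -0.69 to 0.57. The median log2 change of all genes in this fit was -0.10, against -0.59 with all 11 libraries, -0.67 in WT and -0.12 in Nat10-ZcKO.

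**Figure D4:**
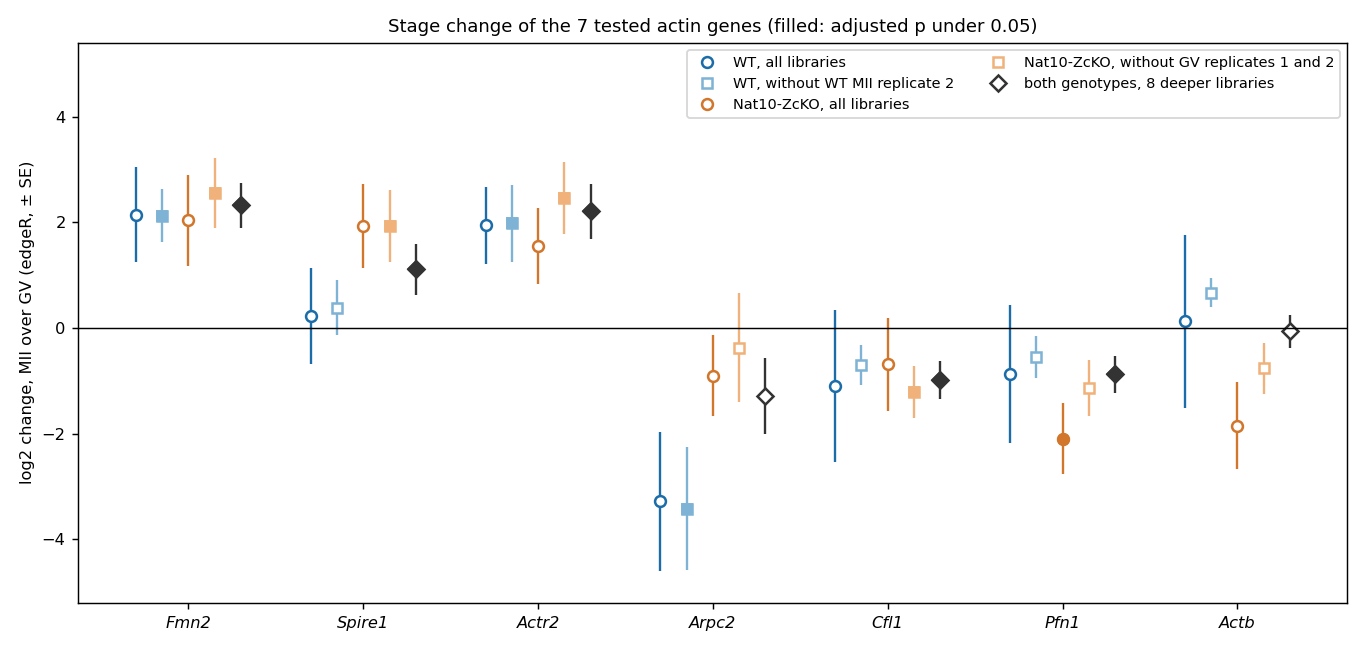
Log2 change from GV to MII with its SE (vertical axis) for the 7 genes tested, in WT and in Nat10-ZcKO with and without the low-depth libraries, and over both genotypes in the 8 deeper libraries; filled symbols have an adjusted p under 0.05. Fmn2 and Actr2 lie between 1.56 and 2.56 in all 5 fits shown, and Actb changes sign between them.

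Markers of the oocyte and of other cells also moved with stage. In the 8 deeper libraries 9 of the 12 oocyte markers fell and 2 rose, and the list summed to 65380 to 128300 CPM at GV and 12380 to 14990 CPM at MII. Of 13 granulosa and cumulus markers tested 4 rose and 5 fell. Ptx3 (log2 change 9.59 ± 0.59), Tnfaip6 (9.37 ± 0.73) and Ptgs2 (5.53 ± 0.72), all made by expanding cumulus cells, rose, and Amh (-4.99 ± 0.51), made by granulosa cells of growing follicles, fell. The list as a whole summed to 2649 to 5020 CPM at GV and 1997 to 5391 CPM at MII, the smooth muscle markers to 686 to 977 and 119 to 198 CPM, and the adipocyte markers to 166 to 272 and 150 to 239 CPM. Their part in the stage changes of the actin genes was not tested.

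The comparison of genotypes asks whether loss of NAT10, an RNA acetyltransferase, changed these footprints within a stage. At GV 0 of the 4 genes tested were called, and 0% of 1765 genes; 93 genes had an unadjusted p under 0.05, and DESeq2 called 3 genes, none of them among these 4. Pfn1 was higher in Nat10-ZcKO by 1.22 ± 0.66 (adjusted p = 0.908) and Actb by 1.41 ± 0.82 (0.908) on the log2 scale. Without Nat10-ZcKO GV replicates 1 and 2 these values were 0.094 ± 0.36 (0.95) and 0.16 ± 0.31 (0.869), 0 of 7 genes were called and 2.01% of all genes. None of the 10 genes had CPM that did not overlap between the genotypes at GV, against 16% of all genes tested. Spire1 was 2.17-fold lower in the remaining Nat10-ZcKO GV library (-1.12 ± 0.54, adjusted p = 0.333), Fmn2 differed by -0.18 ± 0.72 (0.952) and Actr2 by -0.0047 ± 0.68 (0.998), intervals of 2 SE that reach from -1.63 to 1.26 and from -1.37 to 1.36. In the same fit 3 of 12 oocyte markers, Zp2, Zp3 and Padi6, were higher in that library, by 1.02 to 1.12 on the log2 scale, and their part in the actin values was not tested.

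At MII 0 of the 6 genes tested were called, against 0.191% of 2097 genes. The log2 difference of Nat10-ZcKO from WT was 0.39 ± 1.07 for Fmn2, 0.78 ± 0.99 for Spire1, 0.78 ± 0.99 for Actr2, 0.32 ± 0.95 for Cfl1, -0.12 ± 0.90 for Pfn1 and -0.49 ± 1.31 for Actb (adjusted p = 0.997 for each). Spire1 and Actr2 did not overlap between the genotypes, nor did 31.2% of all genes tested, where the 0 counts of both genes in WT MII replicate 2 allow up to 623 CPM. Against WT MII replicate 1 alone, the Nat10-ZcKO libraries were all higher for Fmn2, Spire1 and Actr2 and all lower for Actb, and 49.1% of all genes tested did not overlap. Without WT MII replicate 2, 0 of 7 were called and 0.205% of all genes, and Actb differed by -1.17 ± 0.46 (unadjusted p = 0.0106, adjusted p = 0.621) and Arpc2 by 2.42 ± 2.16 (adjusted p = 0.9998). The interval of 2 SE around Fmn2, from -0.71 to 1.4, includes a 2-fold difference upwards.

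Whether the stage change itself differed between the genotypes was tested over all 11 libraries. None of the 7 genes tested was called, against 0.802% of 3863 genes, and the median difference over all genes was 1.04 on the log2 scale. Arpc2 (3.53 ± 1.85, unadjusted p = 0.0563, adjusted p = 0.789) and Spire1 (2.99 ± 1.56, unadjusted p = 0.055, adjusted p = 0.789) differed most, both with a larger value in Nat10-ZcKO. For Fmn2 the difference was 1.12 ± 1.61 (0.836) and for Actb -0.92 ± 2.002 (0.882). Without Nat10-ZcKO GV replicates 1 and 2 again 0 of 7 were called, and 0.0244% of all genes. Without WT MII replicate 2 it was 0 of 7 and 0% of 5547 genes by edgeR, of which 86 had a higher and 123 a lower value at an unadjusted p under 0.05. A different stage change in Nat10-ZcKO was thus not detectable for any of these genes at this depth.

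The other actin genes of the lists, 88 in all, cover the rest of the Arp2/3 complex and its activators, the formins, actin turnover, actins, and a further list of genes of the cortex and of vesicle transport. In Nat10-ZcKO 27 of them were tested between the stages, 5 rose and 0 fell, against 16.5% of all genes called, with a median log2 change of -0.26 against -0.12 for all genes. Without Nat10-ZcKO GV replicates 1 and 2, 10 rose and 7 fell of 42 tested, against 38.6% of all genes called, and the median was 0.17 against 0.11. Mos, the kinase that keeps MII oocytes arrested, rose 29.8-fold with all libraries (4.90 ± 0.997, adjusted p = 0.0145), and the formins Daam1 (2.83 ± 0.89, 0.0459) and Fhod3 (2.40 ± 0.77, 0.04996) rose 7.1-fold and 5.28-fold. In WT 0 of 27 were called with both MII libraries, and without WT MII replicate 2 10 rose and 8 fell of 41, against 44.8% of all genes called, led by Mos (5.58 ± 0.38), Tpm4 (3.87 ± 0.99) and Myl6 (3.04 ± 1.14) upwards and Cfl2 (-7.62 ± 1.32), Myl12a (-6.17 ± 2.28) and Fmnl3 (-4.06 ± 0.66) downwards.

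In the 8 deeper libraries 45 of the 88 were tested, of which 13 rose and 9 fell, against 55% of all genes called (1027 higher and 1187 lower of 4029), with a median of -0.13 against -0.10 for all genes. Of 6 formins tested 3 rose, Daam1 (2.86 ± 0.36), Fhod3 (1.81 ± 0.37) and Inf2 (3.20 ± 1.08), and 1 fell, Fmnl3 (-2.63 ± 0.50). Daam1 had 7, 15 and 12 counts in WT GV, 22 in Nat10-ZcKO GV replicate 3, 66 in WT MII replicate 1, with 174, 85 and 105 for Nat10-ZcKO MII. Fmnl3, by contrast, had 36, 96 and 20 counts in WT GV and 2 to 8 in the 4 deeper MII libraries. Of the other Arp2/3 complex genes 4 of 7 were tested, 0 rose and 1 fell, Arpc5 (-1.51 ± 0.62), whereas 3 of 6 activators tested rose, Whamm (2.05 ± 0.42), Abi1 (2.60 ± 0.60) and Cttn (1.32 ± 0.51), and Brk1 fell (-1.95 ± 0.45). In actin turnover 0 of 8 rose and 1 fell, the muscle-type cofilin gene Cfl2 (-4.40 ± 0.60). Between the genotypes 0 of these 88 genes were called at either stage with all libraries. Without Nat10-ZcKO GV replicates 1 and 2, Arpc5l, an alternative Arp2/3 subunit, was 2.91-fold lower in the 1 Nat10-ZcKO GV library left (-1.54 ± 0.40, adjusted p = 0.0305), as 1 of 46 tested against 2.01% of all genes called.

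Over the 10 libraries other than WT MII replicate 2, the genes whose log2(CPM + 10) was most like that of Fmn2, out of 2190 genes with at least 100 counts, were Tiam2 (Pearson's r 0.981), Carmil1 (0.978) and Mad2l1 (0.978). Those most like Actb were Clu (0.908), Nr5a2 (0.904) and Tubb5 (0.900). Nr5a2 is 1 of the granulosa markers. Between members, r was 0.767 for Fmn2 with Spire1 and -0.803 for Spire1 with Actb. In the 8 deeper libraries r was 0.974 to 0.985 for the same 3 genes with Fmn2, 0.615 to 0.745 for those with Actb, 0.509 for Fmn2 with Spire1 and -0.295 for Spire1 with Actb. These values are descriptions: the libraries share 2 stages and 2 genotypes, and their depths differ.

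acRIP-seq counted mRNA fragments that an antibody to N4-acetylcytidine (ac4C) pulled down from WT GV oocytes, set against IgG. There was 1 library of each, with 970997 and 116232 counts on genes, so ratios of CPM carry exact (Clopper-Pearson) 95% intervals for counting error only and no replicate check. Pfn1 stood out with 127 anti-ac4C and 1 anti-IgG counts, a ratio of 15.2 (interval 2.68 to 605) that is higher than the ratios of 99.6% of the 8752 genes with 10 or more counts; with 1 IgG count the size of this ratio is not defined closely. Arpc2 followed with 213 and 12 counts and a ratio of 2.12 (1.19 to 4.18). Spire2 had 54 anti-ac4C counts and no anti-IgG count, and Actr2 had 49 and 0. Set against a limit of 3 IgG counts, their ratios were 2.15 and 1.96. The lower bounds of their intervals, which have no upper end, were 1.69 and 1.53. Counting these at their limits, 3 of the 10 genes passed 2-fold, Pfn1, Arpc2 and Spire2, and 21.2% of all 8752 genes did. With the lower bound of the interval above 2 it was Pfn1 alone, against 5.02% of all genes.

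Fmn2 had 282 and 20 counts, a ratio of 1.69 (1.07 to 2.81), and Cfl1 268 and 19, a ratio of 1.69 (1.06 to 2.85). With genes without an IgG count set at 3 IgG counts, these were higher than the ratios of 73.4% and 73.5% of the 8752 genes. Spire1 (269 and 43 counts), Actr3 (188 and 39) and Actb (131 and 38) had more CPM in the IgG library, with ratios of 0.749 (0.541 to 1.06), 0.577 (0.407 to 0.837) and 0.413 (0.286 to 0.609). Actg1, which had 3 RPF counts over 11 libraries, had 28 and 5 counts here and a ratio of 0.67 (0.256 to 2.22). The ratio was below 1 for Actb and Actr3 with their whole intervals, and above 1 for Fmn2, Cfl1, Arpc2, Pfn1, Spire2 and Actr2. The share of all genes with such intervals was not computed. A median of 1.56 over the genes with 10 or more counts takes each gene without an IgG count as above every ratio. It is thus not on the scale of the 3-count limit, on which the 0.749 of Spire1 was higher than the ratios of 39.3% of genes. Nat10 itself had 119 and 5 counts, a ratio of 2.85 (1.19 to 8.94).

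**Figure D5:**
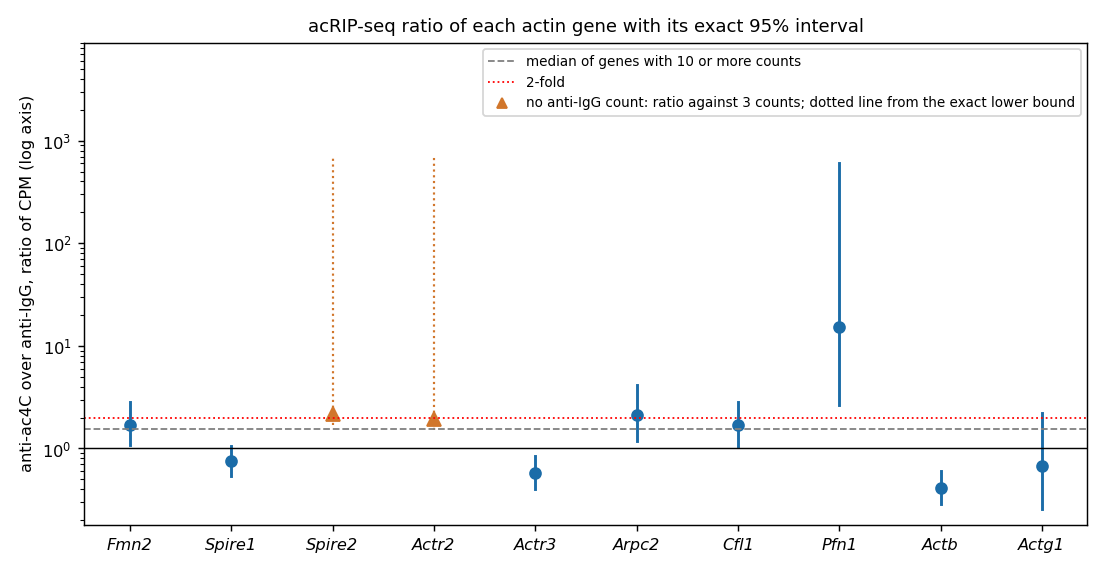
Ratio of anti-ac4C to anti-IgG CPM on a log axis for the 10 genes, with exact 95% intervals; triangles are genes without an IgG count, drawn against 3 counts. Pfn1 lies highest with a wide interval, and Actb lies lowest, at 0.413. The dashed line is a median of 1.56 that, unlike the triangles, takes genes without an IgG count as above every ratio.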

How the data were processed

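Ribo-seq (11 libraries) and acRIP-seq (2 libraries) of mouse oocytes were used. The authors deposited whole-number counts per gene, not normalized and 1 library per table: RPF counts on coding sequences, and acRIP counts on protein-coding genes with summary rows that name no gene, which were left out. These rows put 46.7% of anti-IgG fragments, but 17.1% of those from anti-ac4C, on no feature. The submitters' processing notes name cutadapt, STAR, HTSeq and mm10; versions, and the handling of multiple places and PCR duplicates, are not given in the sources used here.

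Identifiers were matched without version to GENCODE M21 (22399 of 22442). CPM, TPM over the union of coding segments, and exact intervals were computed in Python 3.11.15 (scipy 1.17.1). Groups were compared with edgeR 4.0.16 (filterByExpr, TMM, quasi-likelihood test, Benjamini-Hochberg over all genes, adjusted p under 0.05), with SE as the log2 change over the square root of F; DESeq2 1.42.0 was an alternative. A count of 0 was read against a limit of 3 counts. Other alternatives were library-size scaling, no filter, a replicate block, all libraries in 1 fit and each library left out; the stage fit over both genotypes, with its alternatives, the correlations in 8 libraries and the overlap at MII without WT MII replicate 2 were added after the data had been seen. Same-numbered libraries did not deviate together, so numbers were not treated as pairs. The fit was tested on simulated counts. Of other listed actin genes, up to 3 per direction with the largest change at an adjusted p under 0.05 were named in each comparison; those named beyond that in the 8 deeper libraries, and the markers named, were chosen after their values were seen. For Fmn2 and Actb, the 3 genes of highest correlation were named. The members and lists were chosen with earlier results of these data known. Myl12b matched 2 identifiers and was left out. The result of 1 list, of genes of the cortex and of vesicle transport, is not reported here on its own.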

Additional observations from a re-analysis of the deposited data

How the results depend on the processing

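The count of the 10 genes called moved with the libraries used and with the tool. Leaving out each library in turn, it ran from 0 to 6 for genotype at MII, 0 to 5 for stage in WT, 0 to 2 for stage in Nat10-ZcKO, 0 to 5 for the difference in stage change and 0 to 3 for stage over both genotypes; the highest values for genotype at MII (6), WT stage (5) and the difference in stage change (5) came without WT MII replicate 1, which leaves the library of 4815 counts alone and in which 51.7%, 77.5% and 21.9% of all genes were called. For stage in WT, DESeq2 called 2 (Arpc2 and Cfl1; 43.6% of all genes) and scaling by library size 3 (48.8%). For stage in Nat10-ZcKO, DESeq2 called 5, the fit without both low-depth GV libraries 4, and library-size scaling, no filter, the replicate block and all libraries in 1 fit 0 each. Stage over both genotypes called 5 without the 3 low-depth libraries. The replicate block called 0 of the genes in the 5 comparisons it was run for (all but stage over both genotypes), and same-numbered libraries correlated at -0.048 to 0.153, so the numbers were not read as pairs. For acRIP, unscaled counts put all 10 genes above 2-fold, with 93.5% of all genes, and the lower bound put 1.

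Of 452 log2 changes of single genes under alternatives, 372 kept direction and side of the threshold, 38 passed it newly, 9 lost it and 33 changed sign. For genotype at GV, Cfl1 (-0.22) became 0.44 without both low-depth libraries, and single libraries left out gave -0.93 to 0.21 for Cfl1 and -0.73 to 0.039 for Arpc2. For genotype at MII, Pfn1 (-0.12) became 0.51 with no filter, 0.65 with the block and 0.59 with all libraries in 1 fit, and Actb (-0.49) became 0.68 with the block; leaving out libraries gave -0.47 to 7.21 for Pfn1 and -1.17 to 8.73 for Actb. For stage in WT, Spire1 (0.23) became -0.70 with DESeq2, -0.63 with no filter, -0.18 with the block and -0.57 with all libraries, and Actb (0.12) became -0.78, -0.41, -1.64 and -0.39 in that order; leaving out libraries gave -6.94 to 0.69 for Spire1, -9.31 to 0.67 for Actb and -0.40 to 2.76 for Fmn2. For stage in Nat10-ZcKO, Cfl1 (-0.69) became 0.0088 with no filter and ran from -1.09 to 0.52. For the difference in stage change, library-size scaling gave -0.26 for Fmn2 and -0.25 for Actr2, Pfn1 (-0.10) became 0.39 with no filter, 0.31 with the block and 0.51 without both low-depth libraries, and Actb (-0.92) became 0.32 with the block; leaving out libraries gave -0.89 to 7.80 for Actr2, -0.83 to 6.87 for Pfn1 and -1.72 to 8.29 for Actb. The values 7.21, 8.73, -6.94, -9.31, -0.40, 7.80, 6.87 and 8.29 all came without WT MII replicate 1. That setting leaves the library of 4815 counts as the only WT MII library. The cause of the other changes was not tested. Spire2, Actr3 and Actg1 had too few RPF counts to compare, 13, 18 and 3 in all. The part of depth, and for Actr3 and Actg1 of windows shared with other places, was not tested.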
